A study of Mus musculus with 10 samples.

Results

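The genes described here encode the machinery that docks, primes and fuses synaptic vesicles, with the synaptotagmins, syntaxins, SNAP and VAMP proteins, synapsins, complexins, SV2 and Rab3 proteins, Munc18, Munc13 and RIM families taken by gene symbol alone. This gave 72 of the 24421 rows in the count files, and the rule itself used no measured value. They were compared across 5 groups of 2 pools of mouse vagal sensory neurons that had been picked one by one from the most caudal (nodose) or most rostral (jugular) part of the ganglion complex and sequenced by ultra-low input RNA sequencing. In the Trpv1-tdTomato selection, Trpv1-Cre mice had been crossed with a CAG-tdTomato reporter at the ROSA26 locus, which marks cells that express Trpv1 or did so earlier in life, and pools were made of tdTomato-positive nodose, tdTomato-positive jugular and tdTomato-negative nodose neurons, all from the same pair of mice. In the capsaicin selection, neurons of wild-type C57BL/6 mice had first been tested in a calcium assay: the nodose pools held neurons that responded to α,β-methylene-ATP, a P2X receptor agonist, and to capsaicin, and the jugular pools held neurons that responded to capsaicin alone. The selections also differed in strain, sequencing core, depth and cell number, with fewer cells in a capsaicin pool than in a tdTomato-positive one, so a difference between them cannot be told apart from these. All neurons had been dissociated enzymatically, the tdTomato-negative pools held fewer cells than the tdTomato-positive ones, and the labels do not tie a pool to an animal. The spread between the 2 pools of a group may therefore be partly technical, and pools that shared mice entered the tests as independent samples.

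At a nerve terminal, a vesicle is held by synapsins and Rab3, docked by RIM and Munc13, and fused when its VAMP coils together with syntaxin and SNAP-25 on the plasma membrane, a step that complexin assists and that a synaptotagmin triggers when calcium binds. Most of these proteins come as families of paralogs with different calcium affinity, vesicle type or tissue range. Vagal C-fibre neurons use such vesicles for glutamate at their brainstem endings, and use related dense-core vesicles for the peptides that their peripheral endings release.

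Library totals ran from 148452506 to 167704327 counts in the 6 tdTomato pools and from 17666710 to 30810863 in the 4 capsaicin pools, and vesicle release genes took 0.591% to 1.91% of the counts. Replicate 2 of the capsaicin nodose group stood apart: it had the fewest genes with a count (7889), its 100 most abundant genes held 47.6% of its counts against 22.1% to 35.1% elsewhere, and its scaling factor by the trimmed mean of M values was 0.602 against 0.9 to 1.29. Levels are given as CPM, counts divided by the DESeq2 size factor of the pool and scaled to 1000000 counts in the geometric mean library, so they do not sum to the same total in each pool. The 5 jugular markers summed to 366.5 to 1428 CPM in jugular pools and 24.3 to 80.3 CPM in nodose pools, and all 10 neuron markers reached 10 CPM in both pools of every group but capsaicin nodose, where 7 did. Tac1 alone was at 248.5 to 1080 CPM in jugular pools. The jugular marker Tlx3 did not separate the ganglia in either selection, nor did Runx1 in the capsaicin selection. The 14 satellite glia and Schwann cell markers summed to 2974 to 4058 CPM in tdTomato pools and 1582 to 2202 CPM in capsaicin pools, with 5 to 7 of them at 10 CPM or more in both pools of a group. Apoe was highest in tdTomato pools, at 2041 to 3079 CPM, and Pmp22 was at 914.3 to 1391 CPM in capsaicin pools. Gfap was at 0 throughout, and Sox10 was at 0 in both capsaicin groups and at 10.2 and 2.24 CPM in the tdTomato-negative pools. Immune markers summed to at most 75.7 CPM with Ptprc, Csf1r, Aif1, C1qa, C1qb and Lyz2 at 0, and endothelial and fibroblast markers to 239.2 CPM at most. The part of glial RNA in the levels below was not tested.

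Of the 72 genes, 16 were at 10 CPM or more in all 10 pools. These included Snap25, Stx1a, Vamp2, Cplx1, Rab3a, Rab3c, Snap91, Syt1, Syt4, Syt5, Syt11, Stx4a, Stx8, Snap47 and Vamp4, and so a v-SNARE, both t-SNAREs, a complexin, a Rab3 and a calcium sensor. A further set brought the number at 10 CPM or more in both pools of at least 1 group to 44, and 15 stayed under 10 CPM in every pool. No count was found in any pool for Cplx4, Stx19, Syt10 and Vamp7. Per kilobase of exon, Rab3a (306 CPM per kb), Syt4 (240), Snap25 (160), Vamp2 (122) and Cplx1 (91.2) led in the tdTomato-positive nodose group, with Rab3a (232), Cplx1 (107) and Syt11 (92.5) ahead in the tdTomato-positive jugular group and Snap25 (223), Rab3a (209) and Syt4 (181) in the tdTomato-negative group. In both capsaicin groups Syt4 and Snap25 came first, at 1510 and 1050 CPM per kb in nodose and 353 and 291 CPM per kb in jugular pools.

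**Figure D1:**
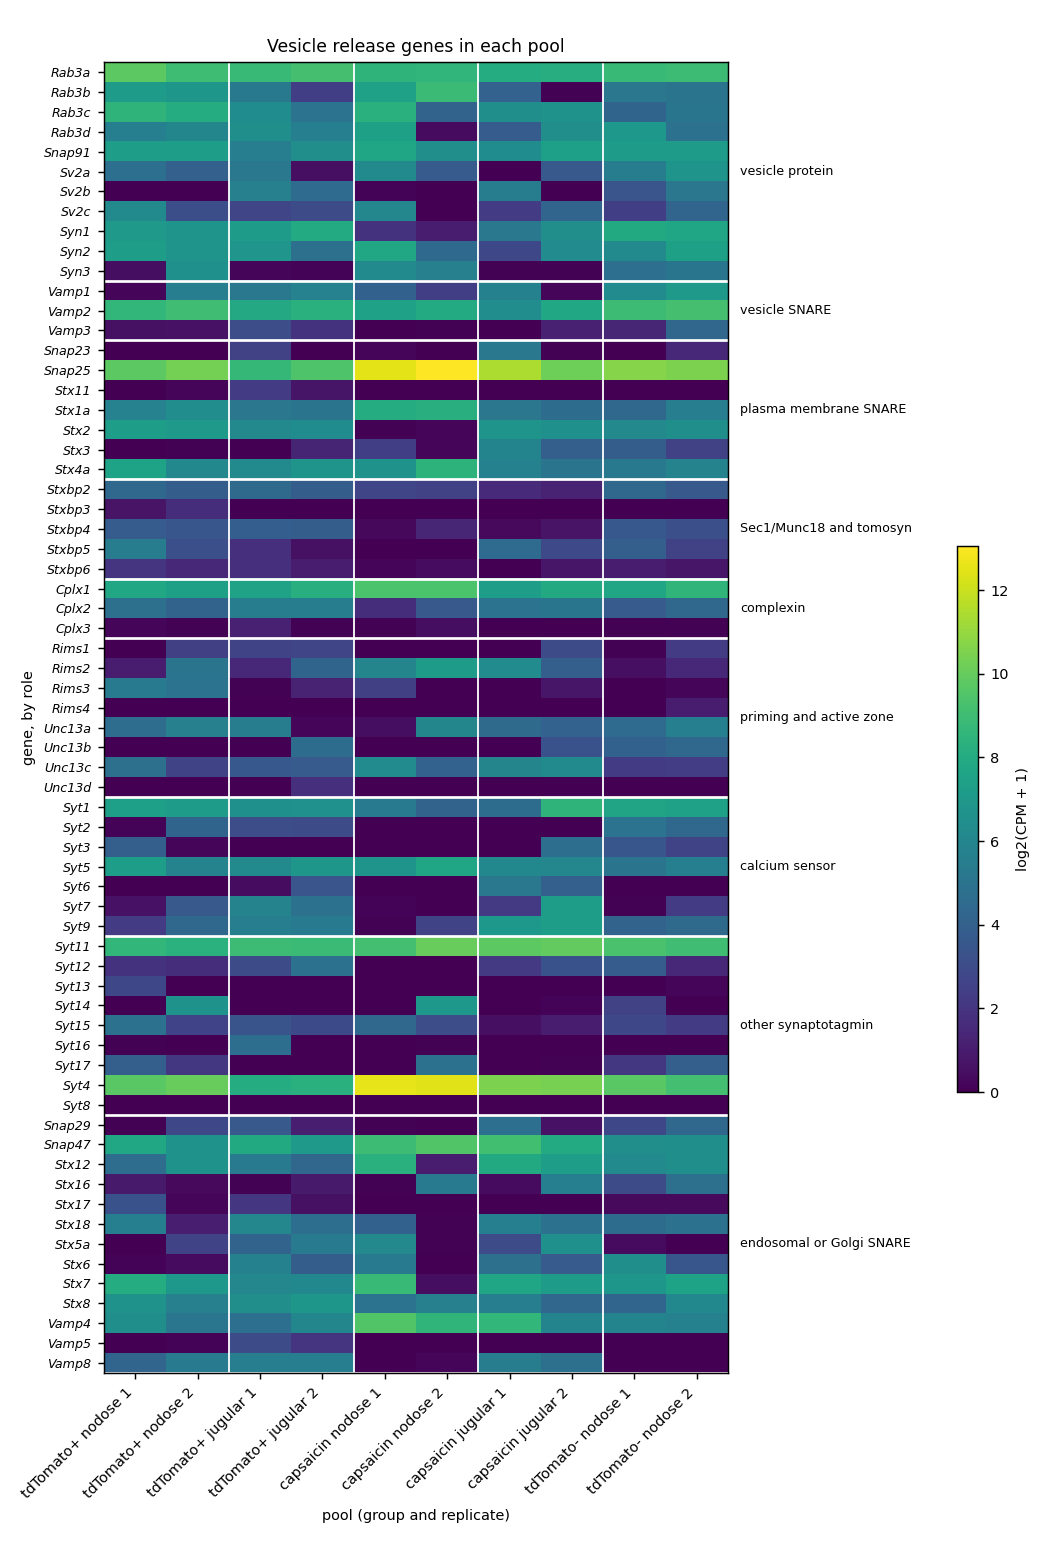
Heat map of the log2(CPM + 1) level of 66 vesicle release genes with a count (rows, grouped by role) in each of the 10 pools (columns). Snap25 and Syt4 are the brightest rows in the capsaicin nodose pools, and Syn1, Stx2 and Vamp8 are dark there and bright in the capsaicin jugular pools.

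Pools of the same group did not hold the same genes. Of the vesicle release genes at 10 CPM or more in either pool, 13.6% were under 1 CPM in the other pool of the tdTomato-positive nodose group, 9.52% in tdTomato-positive jugular, 30.6% in capsaicin nodose, 18.2% in capsaicin jugular and 0% in tdTomato-negative nodose, against 22.5%, 17.4%, 44.3%, 27.3% and 14.6% of all genes. Stx7, an endosomal syntaxin, was at 459.9 CPM in capsaicin nodose replicate 1 and at 0.41 CPM in replicate 2, and Stx12 was at 305.7 and 0.995 CPM. Such genes have a wide spread and few could pass a test with 2 pools a group. In pooled cells, fewer neurons with a transcript and less transcript per neuron cannot be told apart.

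The design compares nodose with jugular neurons in each selection, and tdTomato-positive with tdTomato-negative nodose neurons. A gene was called at an adjusted p of 0.1 or less in edgeR's quasi-likelihood test over 12957 genes, with a fold change of at least 2 and 10 CPM in both pools of a group. Of the 64 vesicle release genes tested, Syt4 alone was called between tdTomato-positive nodose and jugular pools, where 0.201% of all genes were called (0.123% higher and 0.0772% lower in nodose pools). In the capsaicin selection 3 were called, Syt4 higher and Stx2 and Syn1 lower in nodose pools, against 0.849% of all genes (0.34% higher and 0.509% lower). Averaged over both selections 5 were called, Syt4, Snap25 and Syn3 higher and Stx2 and Syn1 lower in nodose pools, against 1.64% (0.671% higher and 0.972% lower). The median log2 fold change of the 64 genes was 0.26, 0 and 0.15 in these comparisons and that of all genes 0.02, 0 and -0.12.

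Synapsins coat vesicles and tether them in the reserve pool. Syn1 (GRCm38 chrX:20860511-20921004, minus strand) was at 130.3 and 105.7 CPM in tdTomato-positive nodose, 148.4 and 252.6 in tdTomato-positive jugular, 244.6 and 204.5 in tdTomato-negative nodose, and 36.7 and 86.3 CPM in capsaicin jugular pools. In the capsaicin nodose pools it was at 2.79 and 0.995 CPM, from 67 and 17 counts, lower than in all 8 others. The fitted log2 fold change of nodose versus jugular was -5.06 (SE 0.96, adjusted p = 0.0582) in the capsaicin selection. Both tdTomato-positive nodose pools were also below both jugular pools, by far less. The call in the capsaicin selection was lost without capsaicin jugular replicate 2 (adjusted p = 0.165), tdTomato-positive jugular replicate 2 (0.113) or either tdTomato-negative pool (0.127 and 0.133), and held without the capsaicin nodose replicate 2 that stood apart (0.0644). Over both selections the log2 fold change was -2.92 (SE 0.62, adjusted p = 0.066). That call was lost without either tdTomato-positive nodose pool (0.247 and 0.273), either tdTomato-positive jugular pool (0.129 and 0.251), capsaicin jugular replicate 2 (0.166) or either tdTomato-negative pool (0.121 and 0.13).

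Syn3 (chr10:86055125-86498896, minus strand), a synapsin of low abundance in most adult neurons, ran the other way. It was at 75.2 and 50.4 CPM in capsaicin nodose pools and at 0.0392 and 0.0417 CPM, 1 count each, in capsaicin jugular pools, a ratio of 1610 (95% counting interval 444 to 13300, fitted log2 fold change 10.49, SE 3.06, adjusted p = 0.205 in edgeR). DESeq2 gave an adjusted p of 2.7e-06 for the capsaicin selection. In the tdTomato-positive selection the nodose pools were at 0.386 and 91.5 CPM and the jugular pools at 0.146 and 0.0929 CPM, and the tdTomato-negative nodose pools at 26.4 and 32.7 CPM. All 6 nodose pools were thus above all 4 jugular pools, though 1 nodose pool by little. The log2 fold change over both selections was 9.54 (SE 2.07, adjusted p = 0.0721). It was 6.06 (adjusted p = 0.344) without tdTomato-positive nodose replicate 2, and the call was lost without either pool of tdTomato-positive jugular (adjusted p = 0.275 and 0.304), capsaicin jugular (0.236 and 0.254) or tdTomato-negative nodose (0.123 and 0.122) as well. Syn3 shares 14.1% of its exon bases with Timp3, and Timp3 was at 6.92 to 60 CPM in the 6 tdTomato pools, at 0 in both capsaicin nodose pools and at 0 and 25.4 CPM in the capsaicin jugular pools. The part of the shared exon bases in the Syn3 counts was not tested.

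Syn2 was at 158.8 and 106.7 CPM in tdTomato-positive nodose, 110.8 and 27.7 in tdTomato-positive jugular, 216.3 and 21 in capsaicin nodose, 6 and 77.2 in capsaicin jugular and 71.2 and 168.2 CPM in tdTomato-negative nodose pools. Its pools overlapped between ganglia in both selections. Per exon length, Syn1 made up 58.6% to 95.1% of the synapsin signal in all pools but those of capsaicin nodose, where it made up 2.24% and 4.08%, Syn2 81.5% and 40.4%, and Syn3 16.2% and 55.5%. The synapsin make-up of the capsaicin nodose pools therefore differed from that of the tdTomato-positive nodose pools, in which Syn1 led.

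Rab3 proteins are small GTPases on the vesicle that bind RIM. Rab3a was at 853.4 and 510.4 CPM in tdTomato-positive nodose, 456.9 and 578.1 in tdTomato-positive jugular, 354.3 and 388.4 in capsaicin nodose, 274 and 283.6 in capsaicin jugular and 435.7 and 496.7 CPM in tdTomato-negative nodose pools, and made up 56.3% to 94.5% of the Rab3 signal per length. Rab3b was at 149.9 and 119.3 CPM in tdTomato-positive nodose against 38 and 4.36 in jugular pools, and at 179.2 and 471.4 CPM in capsaicin nodose against 16.4 and 0.0417 in jugular pools. The nodose pools were above the jugular pools in both selections, and the tdTomato-negative nodose pools (35 and 31.6 CPM) lay below the other nodose pools. The fitted log2 fold changes were 2.66 (SE 1.77, adjusted p = 0.702) and 5.15 (SE 1.98, adjusted p = 0.309), the second 12.76 without capsaicin jugular replicate 1. Neither was called in edgeR as fitted, while DESeq2 gave an adjusted p of 0.508 and 0.0245, and edgeR without the filter on low counts 0.0242 for the second. Its share of the Rab3 signal was 18.4% and 43.2% in capsaicin nodose and 3.38% and 0.00756% in capsaicin jugular pools.

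Rab3c was at 363.3 and 268.7 CPM in tdTomato-positive nodose, 81.4 and 29.9 in tdTomato-positive jugular, 307.6 and 17 in capsaicin nodose, 89.5 and 99.2 in capsaicin jugular and 17.5 and 32.3 CPM in tdTomato-negative nodose pools. It was higher in both tdTomato-positive nodose pools than in the jugular pools (log2 fold change 2.50, SE 1.18, adjusted p = 0.597), while the capsaicin nodose pools fell on either side of the jugular ones. Rab3d ranged from 0.292 to 169.7 CPM with both ends in the capsaicin nodose group.

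The SV2 proteins are vesicle glycoproteins that bind synaptotagmin. Sv2b was at 0.0154 and 0.0049 CPM in tdTomato-positive nodose pools, 3 counts and 1 count, and at 49.5 and 22.2 CPM in tdTomato-positive jugular pools, a ratio of 3530 (95% counting interval 1380 to 13000). The log2 fold change of -11.69 (SE 4.19) had an adjusted p of 0.597 in edgeR. DESeq2 gave an adjusted p of 0.000106. In the capsaicin selection Sv2b was at 0.0834 and 0 CPM in nodose and at 44.5 and 0 CPM in jugular pools, so the groups overlapped, and in tdTomato-negative nodose pools it was at 10.1 and 34.5 CPM. Sv2a, the most widely expressed paralog, was at 25.9 and 14.8 CPM in tdTomato-positive nodose, 36 and 0.436 in tdTomato-positive jugular, 73.4 and 12.4 in capsaicin nodose, 0 and 11.6 in capsaicin jugular and 44.1 and 105.2 CPM in tdTomato-negative nodose pools. Its log2 fold change in the capsaicin selection, where the nodose pools lay above the jugular pools, was 2.87 (SE 2.62, adjusted p = 0.643). Sv2c was at 71 and 7.66, 5.6 and 7.1, 65.1 and 0, 4.04 and 18.1, and 4.27 and 17.8 CPM in the same order. Per length Sv2b held 41.5% and 76.3% of the SV2 signal in tdTomato-positive jugular pools and 0.0143% and 0.0147% in tdTomato-positive nodose pools. Snap91, the clathrin adaptor AP180, was at 47.8 to 200.2 CPM in the 10 pools.

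**Figure D2:**
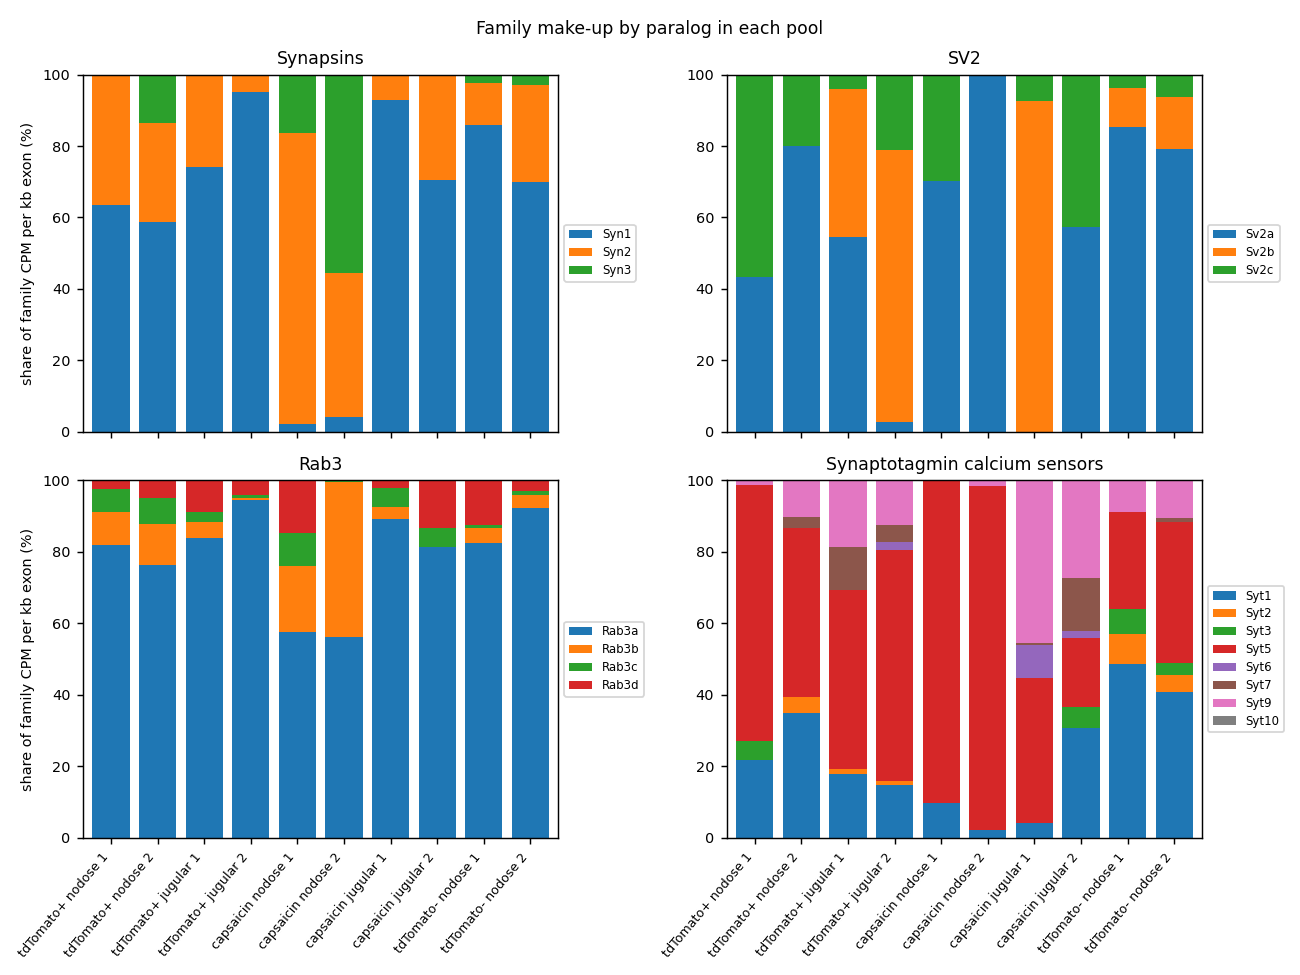
Stacked bars give the share of each paralog in the summed CPM per kilobase of exon (%) of the synapsin, SV2, Rab3 and calcium-sensing synaptotagmin families in each of the 10 pools. Syn1 holds 2.24% and 4.08% of the synapsin bar in the capsaicin nodose pools, and Syt5 holds 90.3% and 96.3% of the synaptotagmin bar there.

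VAMP2, synaptobrevin 2, is the vesicle SNARE of fast release. Vamp2 was at 393.3 and 536.9 CPM in tdTomato-positive nodose, 235.6 and 313.9 in tdTomato-positive jugular, 179 and 255.3 in capsaicin nodose, 82.7 and 216.6 in capsaicin jugular and 491.7 and 589 CPM in tdTomato-negative nodose pools, and made up 80.9% to 99.8% of the Vamp1 to Vamp3 signal per length. Its nodose pools lay above its jugular pools in the tdTomato-positive selection (log2 fold change 0.76, SE 0.53, adjusted p = 0.732) and overlapped with them in the capsaicin selection. Vamp1, synaptobrevin 1, was at 0.149 and 46.9 CPM in tdTomato-positive nodose, 36.5 and 54.6 in tdTomato-positive jugular, 15.6 and 4.33 in capsaicin nodose, 52.2 and 0.167 in capsaicin jugular and 77.4 and 126.5 CPM in tdTomato-negative nodose pools. Its highest levels were those of the 2 tdTomato-negative pools. Vamp3, the ubiquitous cellubrevin, stayed at or under 18.6 CPM.

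On the plasma membrane, Snap25 (chr2:136713453-136782428, plus strand) was the leading SNARE. It was at 883.2 and 1284 CPM in tdTomato-positive nodose, 417.7 and 699.8 in tdTomato-positive jugular, 5767 and 8491 in capsaicin nodose, 2779 and 1167 in capsaicin jugular and 1618 and 1411 CPM in tdTomato-negative nodose pools. Nodose pools were above jugular pools in both selections, with a log2 fold change over both of 1.35 (SE 0.29, adjusted p = 0.0702). The call was lost without tdTomato-positive nodose replicate 2 (adjusted p = 0.169), tdTomato-positive jugular replicate 1 (0.145), capsaicin nodose replicate 2 (0.12) or capsaicin jugular replicate 2 (0.132), with log2 fold changes of 1.09 to 1.18. Stx1a, the neuronal syntaxin, was at 54.8 and 82.3 CPM against 34.5 and 31.7 in the tdTomato-positive selection and at 273.5 and 287.6 against 34.8 and 23.7 CPM in the capsaicin selection, nodose first, and at 19.9 and 46.3 CPM in tdTomato-negative nodose pools. Its log2 fold change in the capsaicin selection was 3.16 (SE 1.01, adjusted p = 0.246 in edgeR, 6.34e-05 in DESeq2).

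Stx2 (chr5:128984557-129008574, minus strand), a syntaxin found in neurons and in many secretory cells, gave the sharpest contrast between the selections. It was at 159.6 and 126.1 CPM in tdTomato-positive nodose, 70.7 and 79.2 in tdTomato-positive jugular and 68.7 and 90.4 CPM in tdTomato-negative nodose pools. The capsaicin jugular pools were at 105.7 and 93.4 CPM, and the capsaicin nodose pools at 0.0417 and 0.175 CPM, 1 and 3 counts. Nodose pools were thus above jugular pools in one selection and below them in the other, without overlap in either. The fitted log2 fold change in the capsaicin selection was -10.01 (SE 1.38, adjusted p = 0.0133), with a count ratio of jugular to nodose of 1020 (95% counting interval 400 to 3760). It was -11.29 (adjusted p = 0.0115) without capsaicin nodose replicate 2, and adjusted p = 0.352 when only the 4 capsaicin pools were fitted. The difference between the selections' ganglion differences was 10.94 on the log2 scale (SE 1.60, adjusted p = 0.071), and Stx2 was the vesicle release gene called there, against 0.054% of all genes (0.0154% with a positive and 0.0386% with a negative difference). That call was lost without either tdTomato-positive nodose pool (adjusted p = 0.227 and 0.233), either tdTomato-positive jugular pool (0.516 and 0.499), either capsaicin jugular pool (0.184 and 0.243) or tdTomato-negative replicate 2 (0.143), and held without capsaicin nodose replicate 2. Over both selections the log2 fold change was -4.54 (SE 0.77, adjusted p = 0.0226), and the call was lost without either tdTomato-positive nodose pool (0.15 and 0.183).

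Stx4a, a plasma membrane syntaxin of constitutive secretion, was at 187.1 and 67.3 CPM in tdTomato-positive nodose, 73.7 and 105.4 in tdTomato-positive jugular, 101 and 340.9 in capsaicin nodose, 51.9 and 31.9 in capsaicin jugular and 38.2 and 56.8 CPM in tdTomato-negative nodose pools. Its log2 fold change in the capsaicin selection was 2.24 (SE 0.96, adjusted p = 0.331), and 1.16 without capsaicin nodose replicate 2. Stx3 and Snap23, the partners used in epithelial and other non-neuronal secretion, peaked at 57.3 and 36.3 CPM in capsaicin jugular replicate 1. Their other pools stayed at or under 14.5 and 4.98 CPM.

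Upstream sequence is given for Syn1 and Stx2, which were near 0 in the capsaicin nodose pools and not in the jugular pools, and for Rab3b and Stx1a, whose nodose pools were above the jugular pools in both selections. The bases come from the RefSeq start sites on GRCm38.p6, read 5′ to 3′ on the gene's strand and ending before the annotated gene, with the GC box GGGCGG and the cAMP response element TGACGTCA, searched on both strands, in capitals.
Syn1 (chrX:20921005-20921168, minus strand): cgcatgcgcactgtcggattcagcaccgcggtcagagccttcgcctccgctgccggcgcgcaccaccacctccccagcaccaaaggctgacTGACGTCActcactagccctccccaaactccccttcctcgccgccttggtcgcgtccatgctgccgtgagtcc
Stx2 (chr5:129008575-129008822, minus strand): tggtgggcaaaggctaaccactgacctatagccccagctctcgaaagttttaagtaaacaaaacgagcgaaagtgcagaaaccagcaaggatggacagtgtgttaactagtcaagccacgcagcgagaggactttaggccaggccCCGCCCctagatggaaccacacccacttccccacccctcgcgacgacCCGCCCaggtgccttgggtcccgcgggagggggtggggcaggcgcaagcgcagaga
Rab3b (chr4:108878820-108879062, plus strand): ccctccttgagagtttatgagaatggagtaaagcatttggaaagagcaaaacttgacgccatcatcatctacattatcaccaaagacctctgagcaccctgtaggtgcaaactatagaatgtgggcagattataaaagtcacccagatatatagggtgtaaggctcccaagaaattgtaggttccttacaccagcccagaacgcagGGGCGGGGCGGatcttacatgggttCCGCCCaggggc
Stx1a (chr5:135023232-135023481, plus strand): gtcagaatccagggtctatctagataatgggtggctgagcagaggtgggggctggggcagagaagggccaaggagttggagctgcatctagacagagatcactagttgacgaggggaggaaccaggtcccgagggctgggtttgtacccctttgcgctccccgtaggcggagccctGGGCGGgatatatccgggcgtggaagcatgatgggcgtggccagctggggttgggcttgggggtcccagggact
The Syn1 sequence held 1 cAMP response element and no GC box. The Stx2 sequence held 2 GC boxes, that of Rab3b 3, of which a pair overlapped, and that of Stx1a 1. Ending the Rab3b sequence before the annotated gene cut off a further GC box 11 bases before the RefSeq start. The shares that follow use the full 250 bases. Over the 250 bases before the start, 32.9% of 27025 genes held a GC box and 1.62% a cAMP response element, against 69.1% and 3.64% of the 55 vesicle release genes with an entry, where the other gene with the response element was Stxbp3. The E box CACGTG was in none of the 4, in 6.05% of all genes and in 12.7% of the 55. These matches describe the letters alone, and no binding was measured.

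Stxbp2, Munc18-2 of mast cells and epithelia, was at 11.4 to 22 CPM in tdTomato pools and 1.42 to 5.63 CPM in capsaicin pools. Stxbp5, tomosyn, which competes with VAMP for syntaxin, was at 45.6 and 8.06 CPM against 2.52 and 0.493 CPM in the tdTomato-positive selection and at 0 in both nodose pools against 22.6 and 6.38 CPM in the capsaicin selection. With Stx2 it was the other vesicle release gene whose pools separated in opposite ways.

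Complexins clamp and then release the assembled SNAREs. Cplx1 was at 227 and 172.3 CPM in tdTomato-positive nodose, 179.7 and 288.6 in tdTomato-positive jugular, 663.7 and 662.5 in capsaicin nodose, 156.2 and 244 in capsaicin jugular and 203.9 and 377.3 CPM in tdTomato-negative nodose pools, and was 89.5% to 99.8% of the complexin signal per length. The capsaicin nodose pools were the highest of all 10 (log2 fold change over the jugular pools 1.63, SE 0.53, adjusted p = 0.251). Cplx2 was at 27.2 and 16.6, 45 and 44.6, 2.25 and 11.7, 30.6 and 32.9, and 12.5 and 19.2 CPM in the same order. Its jugular pools were above its nodose pools in both selections. The retinal paralog Cplx3 was at or under 1.33 CPM.

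Munc13 primes vesicles and RIM holds them at calcium channels, and none of these 8 genes reached 10 CPM in all pools. Unc13a, the main brain isoform, was at 24.2 and 50.5 CPM in tdTomato-positive nodose, 44.9 and 0.125 in tdTomato-positive jugular, 0.375 and 62.9 in capsaicin nodose, 21.5 and 16.5 in capsaicin jugular and 23.1 and 48.4 CPM in tdTomato-negative nodose pools. The pools of tdTomato-positive jugular and of capsaicin nodose neurons lay on both sides of 1 CPM. Unc13c, first known from cerebellum, was at 3.84 to 77.2 CPM and had a count in every pool. Rims1 was at or under 6.84 CPM everywhere and at 0 in tdTomato-positive nodose replicate 1, both capsaicin nodose pools and capsaicin jugular replicate 1. Rims2 reached 60.5 and 144.2 CPM in capsaicin nodose and 76.2 and 14.5 in capsaicin jugular pools.

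Rims3, a short RIM of the active zone, was at 39.7 and 30.9 CPM in tdTomato-positive nodose pools and at or under 4.63 CPM in the other 8. Its log2 fold change against tdTomato-positive jugular pools was 5.66 (SE 3.76, adjusted p = 0.703). The 2 tdTomato-positive nodose pools were therefore the ones in which a RIM other than Rims2 exceeded 10 CPM.

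Synaptotagmins 1, 2 and 9 are the calcium sensors of fast release, and synaptotagmin 7 is a slow, high-affinity sensor. Syt1 was at 163.6 and 144.3 CPM in tdTomato-positive nodose, 92.3 and 96.2 in tdTomato-positive jugular, 39.9 and 16.7 in capsaicin nodose, 23.5 and 354.1 in capsaicin jugular and 193.1 and 175.8 CPM in tdTomato-negative nodose pools. Nodose pools were above jugular pools in the tdTomato-positive selection, and the capsaicin jugular pools lay far apart. Syt2, the sensor of fast hindbrain and neuromuscular synapses, was at 0 in all 4 capsaicin pools, at 0.0772 and 17.4 CPM in tdTomato-positive nodose, 7.37 and 6.87 in tdTomato-positive jugular and 30 and 19.4 CPM in tdTomato-negative nodose pools. Syt5, a close relative of Syt1, was at 30.9 to 207.6 CPM over the 10 pools and was the largest share of the calcium sensors per length in 6 of them, with 90.3% and 96.3% in the capsaicin nodose pools.

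Syt9 was at 3.89 and 20.2 CPM in tdTomato-positive nodose, 46.1 and 38.5 in tdTomato-positive jugular, 0.0417 and 5.5 in capsaicin nodose, 123.9 and 151.2 in capsaicin jugular and 16.6 and 21.7 CPM in tdTomato-negative nodose pools. Every jugular pool was above every nodose pool. The log2 fold changes were -1.80 (SE 1.83, adjusted p = 0.936) and -5.84 (SE 2.19, adjusted p = 0.306) in edgeR, the second -11.75 (adjusted p = 0.0768) without capsaicin nodose replicate 2. DESeq2 gave an adjusted p of 0.00466 for the capsaicin selection. Syt9 held 45.4% and 27.4% of the calcium sensor signal per length in capsaicin jugular pools and 0.021% and 1.53% in capsaicin nodose pools.

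Syt7 was at 0.551 and 11.5 CPM against 55.9 and 28.1 CPM in the tdTomato-positive selection and at 0.0834 and 0 against 3.61 and 153.6 CPM in the capsaicin selection, nodose first, with a log2 fold change of -2.77 (SE 2.59, adjusted p = 0.897) in the former. Syt6 was at 36.5 and 15 CPM in capsaicin jugular pools and had no count in the capsaicin nodose pools, so it was at least 179-fold higher with the floor of 3 counts in each nodose pool. It was at 0.327 and 9.82 CPM in tdTomato-positive jugular pools, at 0 and 0.00981 CPM in tdTomato-positive nodose pools and at 0 in both tdTomato-negative pools. Syt6, Syt7 and Syt9 thus had all their jugular pools above the nodose pools of the same selection, and none was called in edgeR. DESeq2 called Syt6 (adjusted p = 0.00102) and Syt9 in the capsaicin selection.

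Synaptotagmin 4, which does not bind calcium as synaptotagmin 1 does and sits on dense-core vesicles and the Golgi, had the most repeatable ganglion difference. Syt4 was at 842.2 and 1023 CPM in tdTomato-positive nodose pools (mean 932.8 ± 128.1, SD, n = 2) and at 270.1 and 306.1 CPM in tdTomato-positive jugular pools (288.1 ± 25.5). In the capsaicin selection the nodose pools were at 5988 and 5735 CPM and the jugular pools at 1400 and 1345 CPM, and the tdTomato-negative nodose pools were at 834.3 and 574.7 CPM. Nodose pools were above jugular pools in both selections and tdTomato-negative nodose pools above tdTomato-positive jugular ones.

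The log2 fold change of Syt4 was 1.70 (SE 0.28, adjusted p = 0.0563) in the tdTomato-positive selection, 2 (SE 0.28, adjusted p = 0.0163) in the capsaicin selection and 1.85 (SE 0.20, adjusted p = 0.00156) over both. The first of these calls was lost without tdTomato-positive nodose replicate 1 (adjusted p = 0.148) or 2 (0.41) or tdTomato-positive jugular replicate 1 (0.467) or 2 (0.254), with log2 fold changes of 1.51 to 1.78. The second was lost without capsaicin jugular replicate 2 (adjusted p = 0.102) and held without capsaicin nodose replicate 2 (0.0191), and the call over both selections held without any 1 of the 10 pools. Syt11, the related synaptotagmin, was at 318.9 to 487.1 CPM in the tdTomato-positive pools and 537.7 and 637 CPM in the tdTomato-negative pools, and at 560.3 to 1054 CPM in the capsaicin pools. It did not share the ganglion difference: the tdTomato-positive jugular pools were above the nodose pools and the capsaicin groups overlapped. Syt14 was at 101.4 CPM in tdTomato-positive nodose replicate 2 and 121.5 CPM in capsaicin nodose replicate 2, and at 0 in the other pool of both groups.

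**Figure D3:**
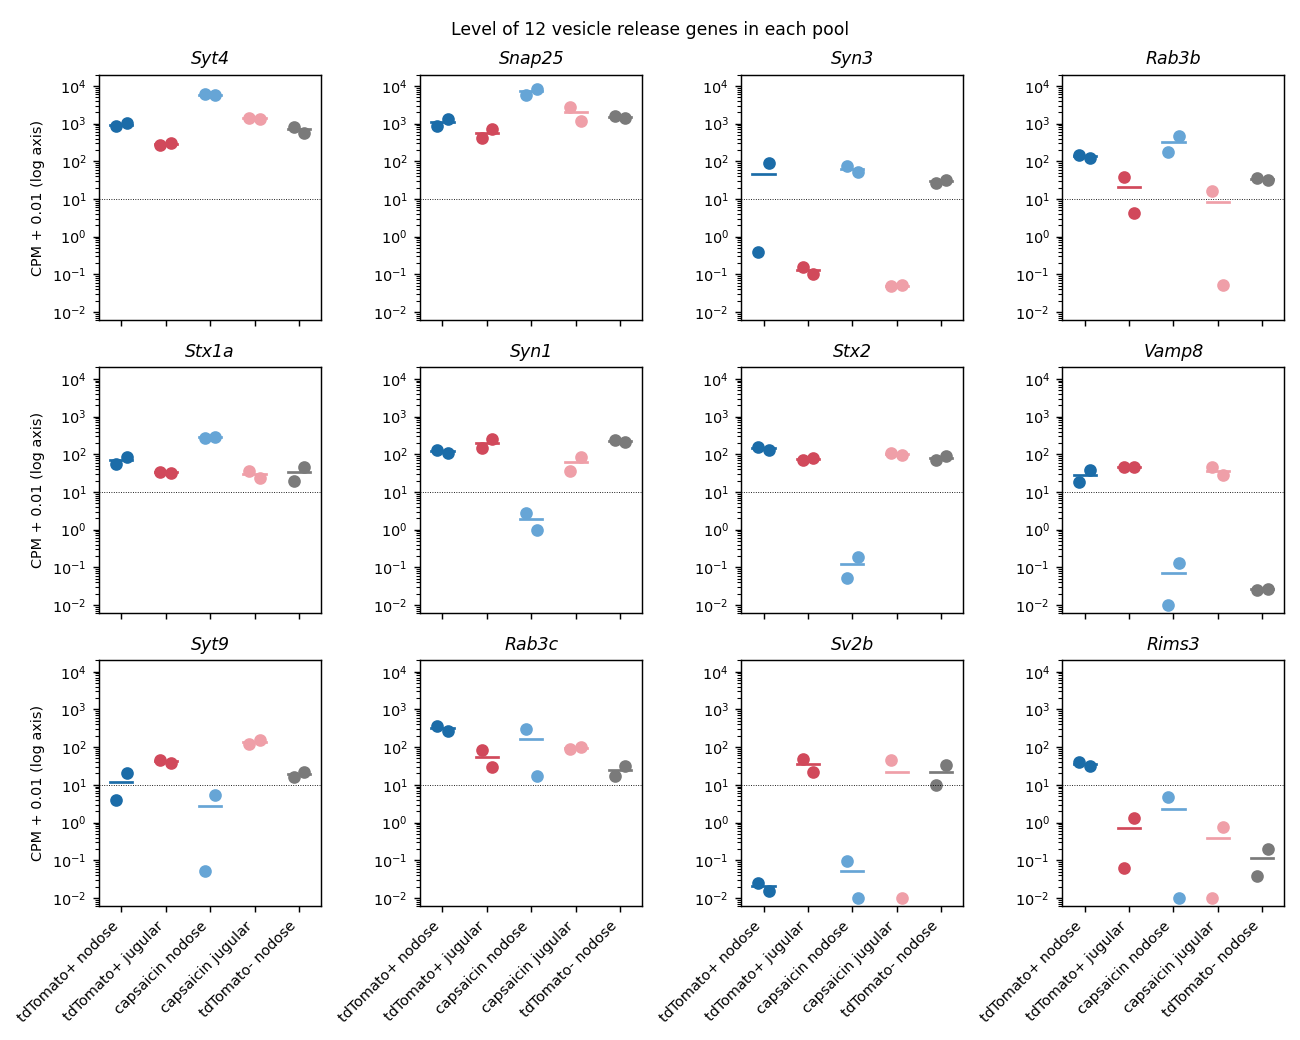
Level of 12 vesicle release genes in each pool, as CPM + 0.01 on a log axis. Dots are pools, bars are the means of 2 pools and the dotted line marks 10 CPM. Syt4 separates nodose from jugular pools in both selections, and Stx2, Syn1 and Vamp8 drop in the capsaicin nodose pools.

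Among the endosomal and Golgi SNAREs, Vamp8, which mediates endosome fusion and granule release, was at 18.4 and 38.7 CPM in tdTomato-positive nodose, 46.9 and 46.7 in tdTomato-positive jugular and 44.4 and 27.5 CPM in capsaicin jugular pools. It was at 0 and 0.117 CPM in capsaicin nodose pools and at 0.0155 and 0.0167 CPM in tdTomato-negative nodose pools, from 4 counts in each. The capsaicin nodose and tdTomato-negative nodose groups were thus near 0, and the tdTomato-positive nodose group was not. The count ratio of capsaicin jugular to nodose was 744 (95% counting interval 206 to 6150), with an adjusted p of 0.194 in edgeR and 1.88e-10 in DESeq2. Stx6, a trans-Golgi syntaxin, was at 0.103 and 0.319 CPM in tdTomato-positive nodose and 52.8 and 13.6 CPM in tdTomato-positive jugular pools (log2 fold change -7.28, SE 3.24, adjusted p = 0.597), and at 38.8 and 0 against 26.9 and 12.5 CPM in the capsaicin selection. Stx7 was at 272.2 and 124.9 against 65.5 and 66.4 CPM in the tdTomato-positive selection (log2 fold change 1.58, SE 1.67, adjusted p = 0.951), and 0.87 without tdTomato-positive nodose replicate 1. Stx5a, of the Golgi, was at 0.0206 and 5.3 CPM in tdTomato-positive nodose and 16.9 and 41.2 in jugular pools (log2 fold change -3.42, SE 3.15, adjusted p = 0.89). Snap47, at 85.5 to 716.9 CPM, had overlapping ganglia in both selections and shares 11.6% of its exon bases with Jmjd4.

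For the other core genes, the ganglion difference in the tdTomato-positive selection had log2 fold changes of -0.24 for Cplx1 (SE 0.52), 0.39 for Rab3a (SE 0.39), 0.7 for Syt1 (SE 1.05), 0.93 for Syn2 (SE 1.37), -0.93 for Vamp1 (SE 2.29), 0.74 for Unc13a (SE 2.36) and 2.61 for Sv2c (SE 2.76). In the capsaicin selection the values were 0.31 for Rab3a (SE 0.39), 0.43 for Vamp2 (SE 0.53), -2.35 for Cplx2 (SE 1.75) and -2.78 for Syt1 (SE 1.12). None of these passed the test.

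Across the 64 genes tested, the nodose pools were above the jugular pools without overlap for 18 and below for 16 in the tdTomato-positive selection, where 20.1% and 19.6% of all genes did so (39.7% in either direction), and for 13 and 12 in the capsaicin selection, where 13.6% and 17.6% did (31.2%). For 12 genes (18.8%, against 9.23% of all genes) the pools separated the same way in both selections. The 5 with nodose above jugular were Rab3b, Snap25, Stx1a, Syn3 and Syt4, and the 7 with jugular above nodose were Cplx2, Syn1, Syt6, Syt7, Syt9, Syt12 and Vamp8. The nodose set thus held a plasma membrane SNARE pair, and the jugular set held 3 of the 7 calcium sensors tested. The more abundant sensors did not follow the jugular set: nodose pools were higher for Syt1 in the tdTomato-positive selection and for Syt5 in the capsaicin selection. Each overlapped between ganglia in the other selection. Stx2 and Stxbp5 separated in opposite ways (3.12%, against 4.28%). The fitted fold change had the same sign in both selections for 41 of the 64 (64.1%, against 48.7% of all genes). Genes without a count in the capsaicin pools, such as Syt2, Stx17 and Vamp5, were among those tested and had no direction there. They lower such shares, and their part in the gap to all genes was not tested.

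**Figure D4:**
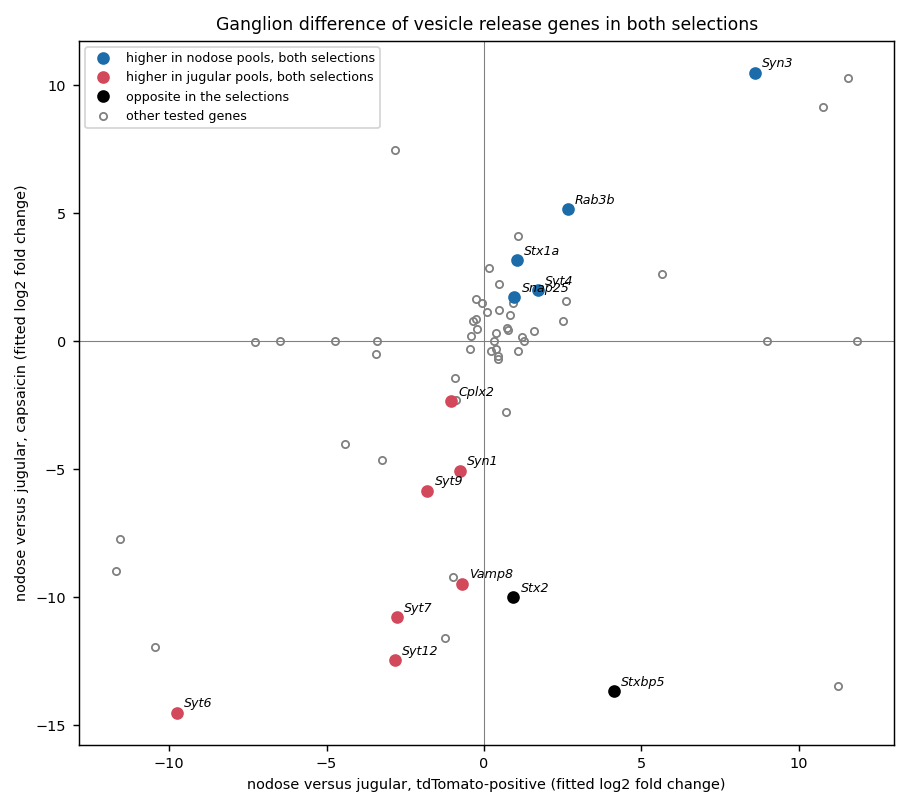
Fitted log2 fold change of nodose versus jugular pools in the tdTomato-positive (x axis) and capsaicin (y axis) selections for the 64 vesicle release genes tested, each point a gene. The 5 blue and 7 red genes had pools that separated the same way in both selections, and Stx2 and Stxbp5, in black, separated in opposite ways. Fitted values beyond about 10 belong to genes with few or no counts in a group.

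Between tdTomato-positive and tdTomato-negative nodose pools no vesicle release gene was called by edgeR, against 0.054% of all genes (0.0232% higher and 0.0309% lower), and 5 had an unadjusted p under 0.05, as did 701 of all 12957 genes. DESeq2 called 6, Rab3c, Rims3 and Vamp8 higher and Stx6, Sv2b and Unc13b lower in tdTomato-positive pools, among 296 of all genes. Of the 64 vesicle release genes tested, the pools did not overlap for 16 higher and 15 lower in tdTomato-positive pools, against 17.4% and 21.2% of all genes (38.6% in either direction). Vamp8 was at 18.4 and 38.7 against 0.0155 and 0.0167 CPM (log2 fold change 10.79, SE 2.77, adjusted p = 0.74). Rims3 was at 39.7 and 30.9 against 0.0271 and 0.188 CPM (8.43, SE 4.26), and Rab3c at 363.3 and 268.7 against 17.5 and 32.3 CPM (3.73, SE 1.24). Rab3b (2.07, SE 1.73, adjusted p = 0.948) and Stx4a (1.47, SE 0.93, adjusted p = 0.788) were the next largest, and all 5 had separate pools. Unc13b, Munc13-2, ran the other way, from 2 counts and 1 count to 15.6 and 20 CPM, a ratio of 2350 (95% counting interval 803 to 11400). Sv2b had a ratio of 2170 (848 to 7970) in that direction, and Stx6 was at 0.103 and 0.319 against 88.9 and 10.3 CPM (-7.83, SE 3.32). Vamp1 (-2.02, SE 2.36) and Sv2a (-1.81, SE 2.52) had higher tdTomato-negative pools, both with an adjusted p of 1. In the SNARE core, Stx1a was above and Snap25 below the tdTomato-negative pools without overlap (1.13, SE 0.94, and -0.42, SE 0.4), while the Vamp2 pools overlapped. Trpv1 was at 117.9 and 202.2 CPM in tdTomato-positive and 0.0334 to 0.0348 CPM in tdTomato-negative pools.

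The capsaicin pools differed from the tdTomato-positive pools in 8 of the 64 vesicle release genes tested, against 10.8% of all genes (2.82% higher and 7.99% lower in capsaicin pools). The share of vesicle release genes called was thus near that of all genes. The median of all genes was shifted by -1.23 on the log2 scale under the trimmed mean scaling and by -0.788 under median-ratio scaling. Syt4 (log2 fold change 1.98, SE 0.20, adjusted p = 0.000327), Snap25 (1.78, SE 0.29, adjusted p = 0.00454) and Vamp4 (2.31, SE 0.70, adjusted p = 0.0779) were higher. Vamp4, a trans-Golgi SNARE, was at 731.3 and 373.7 CPM in capsaicin nodose and 394.5 and 57.5 in capsaicin jugular against 25.9 to 89.1 CPM in tdTomato-positive pools, and its log2 fold change was 1.30 (adjusted p = 0.339) without capsaicin jugular replicate 1. The Vamp4 call was also lost without any 1 of the tdTomato-positive pools (adjusted p = 0.101 to 0.219), capsaicin nodose replicate 1 (0.136) or tdTomato-negative replicate 2 (0.11). Stx2 (-5.49, SE 0.80, adjusted p = 0.00225) and Syn1 (-4.28, SE 0.66, adjusted p = 0.00301) were lower, as was Vamp8 (-5.19, SE 1.57, adjusted p = 0.0779). The capsaicin jugular pools of Stx2 and Vamp8 lay within the range of the 4 tdTomato-positive pools, while Syn1 was lower in all 4 capsaicin pools than in any tdTomato-positive pool. The Vamp8 call was lost without any pool but the 2 of capsaicin nodose (adjusted p = 0.132 to 0.257). Rab3a (-1.36, SE 0.28, adjusted p = 0.0164) and Vamp2 (-1.48, SE 0.38, adjusted p = 0.0443) lay near the all-gene shift, and neither was called under median-ratio scaling (adjusted p = 0.115 and 0.161), nor was Vamp8 (0.112). The Rab3a call was lost without tdTomato-positive nodose replicate 1 (0.123), and the Vamp2 call without tdTomato-positive nodose replicate 2 (0.145), tdTomato-positive jugular replicate 2 (0.136), capsaicin jugular replicate 1 (0.131) or tdTomato-negative replicate 1 (0.104). That scaling called 6 genes higher and 2 lower in place of 3 and 5, and 509 and 722 of all genes in place of 366 and 1035. The sums of glial and of neuron markers were also lower in the capsaicin pools (neuron markers 4887 to 6118 CPM against 11240 to 12220 CPM), and their part in these differences was not tested. Single markers did not all follow the sums. The fitted change was upward for 5 of 12 glial and 2 of 10 neuron markers tested. Of the markers called in these lists, Pmp22 was higher (914.3 to 1391 against 144.2 to 295.6 CPM), while Apoe, Fabp7 and 5 neuron markers were lower.

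Other genes of the vesicle cycle were read from 3 further lists. Of 11 dense-core vesicle genes tested, Scg2, the granin secretogranin II, was called in the tdTomato-positive selection. The tdTomato-positive nodose pools held 780.8 and 1359 CPM against 98.5 and 192.9 CPM in the jugular pair (log2 fold change 2.88, SE 0.5, adjusted p = 0.0753). In the capsaicin selection it was at 1844 and 1484 against 422.4 and 249.5 CPM, so within each selection Scg2 separated the ganglia in the direction of Syt4. The tdTomato-negative nodose pools, at 158.9 and 173.5 CPM, lay within the range of the tdTomato-positive jugular pools for Scg2, unlike for Syt4. Over both selections Scg2 was called higher and Scg3, another granin, lower in nodose pools (log2 fold change -1.55, adjusted p = 0.0453).

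Of 37 other vesicle and active zone genes tested, Rph3a, a Rab3 effector, was called in the capsaicin selection, lower in nodose pools (log2 fold change -10.91, adjusted p = 0.0477). It was at 0.0834 and 0.0585 CPM in capsaicin nodose against 112.5 and 152.6 CPM in capsaicin jugular pools, and at 0.525 and 0.628 against 51.3 and 86 CPM in the tdTomato-positive selection. The Rph3a pools thus separated as those of Syt9 did, with nodose below jugular. Of 24 endocytosis genes tested, Ap2a1, a clathrin adaptor subunit (adjusted p = 0.0742), and Pacsin1, a membrane-bending protein (0.0713), were called lower in capsaicin nodose pools. Both were near 0 there, at 0 and 0 CPM for Ap2a1 and 0.125 and 0.0585 CPM for Pacsin1, as Syn1 and Stx2 were. Averaged over both selections Rph3a, Sytl3, Ap2a1 and Pacsin1 were called lower in nodose pools. In the tdTomato-positive selection the nodose pools of Rph3a and Sytl3 lay below the jugular pools. Those of Ap2a1 (53.8 and 54.9 against 61.7 and 20.9 CPM, nodose first) and Pacsin1 (69.8 and 71.4 against 25.4 and 102.8 CPM) overlapped with them. No gene of these 3 lists was called by edgeR between tdTomato-positive and tdTomato-negative nodose pools, where 3 had an unadjusted p under 0.05 and DESeq2 called 4 (Chgb, Erc1, Rph3a and Scg2). Between the selections, where 10.8% of all genes were called, 8 endocytosis genes (1 higher and 7 lower in capsaicin pools), 3 other vesicle genes (1 higher and 2 lower) and the dense-core gene Pam (higher) were called.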

How the data were processed

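The deposited files held raw read counts per gene symbol for each of the 10 pools. Per the authors' methods and the labels' processing notes, SMARTer ultra-low input libraries were aligned to mm10 with TopHat2 2.0.9 and Bowtie2 2.1.0.0 and counted with HTSeq, with base calls by CASAVA 1.8.2. The gene annotation and any strand setting are not given in the sources used here, so overlapping genes may share counts. Symbols in 27 rows had been turned into dates and 2 symbols were duplicated, and none of these was a vesicle release gene.

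Counts were fitted with edgeR 4.0.16 in R 4.3.3, as a quasi-likelihood test on a one-way layout of all 10 pools with 5 residual degrees of freedom, trimmed mean scaling and the default filterByExpr step, and with p-values adjusted by Benjamini-Hochberg over 12957 genes. The study's own tool, DESeq2 (version 1.42.0), was an alternative, beside the other settings given below. SD measures the spread between the 2 pools of a group. SE was derived from the edgeR test, as the absolute log2 fold change divided by the square root of the quasi-likelihood F statistic. It is not a separately fitted standard error, and is least informative where a group had few or no counts. The edgeR p-values of the main fit rest on the spread within all 5 groups, so they also depend on pools outside a comparison. An exact permutation test of 2 pools against 2 could not go below p = 0.33. Pools of 1 group differed by far more than counting noise (chi-square per degree of freedom 461 to 2580), and a floor of 3 counts was 0.0116 to 0.0154 CPM in tdTomato pools and 0.118 to 0.176 CPM in capsaicin pools. Ratios for genes with few counts carry 95% intervals that cover counting error only. Levels per length used GENCODE exon unions on GRCm38, which matched 71 of the 72 genes, and upstream sequence came from RefSeq.

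Levels were given for a fixed neuronal core, for every member called, and for up to 5 members per direction with the largest fold change among those with separate pools and 10 CPM in both pools of a group, with others named by role. Of further lists, called genes were named. The member rule reads symbols only, but the gene families in it and the lists were chosen with earlier results of these data known. The scripts were tested on simulated counts, with a pass mark only at a low simulated spread. That test does not show how many true differences would be found at the spread of these pools. Some genes of the set and 1 list of markers are not reported here.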

Additional observations from a re-analysis of the deposited data

Results flagged for a closer look

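The nodose-jugular difference of Stx2 differed between the selections in edgeR's test of that difference, the 1 such call among the vesicle release genes. The tdTomato-positive difference minus the capsaicin difference was 10.94 on the log2 scale (SE 1.60, adjusted p = 0.071 in edgeR). Both tdTomato-positive nodose pools were above both jugular pools, and both capsaicin nodose pools, at 1 and 3 counts, were below both jugular pools. The adjusted p of Stx2 was 0.107 under median-ratio scaling and 0.227 with the replicate number as a block. DESeq2 also called Syn1 (adjusted p = 0.00589), Syt7 (0.0774) and Vamp8 (3.88e-06) there. Groups of 2 pools are too small for a test for single outlying pools.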

How the results depend on the processing

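The main fit called 1 vesicle release gene in the tdTomato-positive ganglion comparison, 3 in the capsaicin one, 0 between tdTomato-positive and tdTomato-negative nodose pools, 5 over both selections, 1 in the difference between selections and 8 between selections. With DESeq2 the counts, in that order, were 3, 13, 6, 15, 4 and 13, while the calls over all genes rose from 26, 110, 7, 213, 7 and 1401 to 474, 1131, 296, 1742, 1293 and 2894. The DESeq2 calls in the tdTomato-positive ganglion comparison were Syt4, higher, and Stx6 and Sv2b, lower in nodose pools. In the capsaicin one they were Cplx1, Rab3b, Snap25, Stx1a, Stx4a, Syn3 and Syt4, higher, and Cplx2, Stx2, Syn1, Syt6, Syt9 and Vamp8, lower. With only the pools compared in the edgeR fit the counts of vesicle release genes were 0, 0, 0, 2, 0 and 7, from fewer residual degrees of freedom. The calls over all genes were then 35, 0, 6, 140, 0 and 1056. Under median-ratio scaling the difference between selections gave 0. Without the filter on low counts the capsaicin comparison gave 5 (344 of all genes) and that over both selections 8 (628 of all genes). The latter also gave 8 with a filter at 10 CPM (557 of all genes). The replicate numbers did not pair the pools (correlations of deviations -0.0235 to 0.0198), and with the replicate number as a block the counts were 0, 2, 0, 2, 0 and 6. Leaving out 1 pool gave 0 to 1, 1 to 6, 0 to 0, 1 to 9, 0 to 5 and 5 to 11 calls. Without either capsaicin nodose pool the capsaicin comparison called more vesicle release genes than the main fit, and more of all genes as well. Of the fold changes of named genes under all alternatives, 667 kept their direction and side of the threshold, 80 were no longer called, 18 were newly called and none changed sign. These genes had been named for a call or for separate pools in the same data. A kept sign was therefore largely built in and is no support for them. Of mean levels, 132 of the values recomputed under other scalings moved by more than 1 SD, and 53 of the paralog shares moved when not divided by length. The causes were not tested. The capsaicin pools had fewer counts, so a gene at 0 there has a higher floor.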
